A study of Caenorhabditis elegans with 18 samples.

Results

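This section describes the lysozyme and saposin-like genes of Caenorhabditis elegans, chosen by name: every gene whose symbol begins with lys-, ilys- or spp-. The deposited tables hold 46 such genes among 47020, namely 10 lys genes, 6 ilys genes and 30 spp genes. Whole N2 worms were fed bacteria making double-stranded RNA from the first larval stage, moved as late L3 larvae to new RNAi plates without cadmium or with 300 μM cadmium for 12 h, and collected as late L4 larvae to young adults. There were 6 groups of 3 poly(A) RNA-seq libraries, without or with cadmium: control(RNAi), ints-4(RNAi) and another treatment called numr-1/2(RNAi), after a gene, numr-1, and its identical adjacent copy, numr-2. All worms were N2, the wild type, and all ate RNAi bacteria. The control bacteria carried the clone pPD129.36, which the labels call empty vector. By the study's account this clone makes a double-stranded RNA that matches no gene of the worm. The labels name only numr-1 for the clone that the study calls numr-1/2(RNAi), and ints-4 encodes a subunit of integrator, a complex that processes small nuclear RNAs. RNAi lowers a transcript in the whole animal rather than removing the gene.

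Lysozymes cut the peptidoglycan wall of bacteria. In C. elegans the lys genes encode lysozymes of the type known from protists and the ilys genes lysozymes of the type known from invertebrates. The spp genes encode small saposin-like proteins, among them caenopores, which make pores in membranes and kill bacteria in the gut. Many of these genes are expressed in the intestine, where they serve digestion of the bacterial food as well as defence, and some answer to infection.

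The deposited value of a gene is a mean over the 3 libraries of a group, each divided by its size factor, and it is printed with enough digits to recover the whole number of reads in each library. Reads were recovered for 98.8% to 99.8% of the genes above 0 in a group, and most of those left out were genes of high level. They were scaled here over all 18 libraries, so that a value below is a scaled read count per library. The libraries of a group are called a, b and c in order of their size factor, since their replicate numbers could not be recovered. The study's methods call the 3 libraries of a group biological replicates, but no source used here says whether they came from separate cultures, and the p-values measure the spread between these libraries. Fold changes and standard errors (SE) come from limma on log2(scaled reads + 1) in a single fit, p-values were adjusted over all genes tested in the comparison, and a gene was called at an adjusted p below 0.05 and a change of at least 2-fold. The fitted fold change of a gene with few reads depends on the added 1.

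The recovered reads came to 19759240 to 33671001 per library, and the genes left out held 12.7% to 44.6% of the summed value of a group, most in the groups with cadmium. numr-1 was at 108 to 415 scaled reads in control(RNAi) with cadmium and 38.9 to 60.7 in numr-1/2(RNAi) with cadmium. In the 2 groups without cadmium it was at 0.960 to 5.47 and 0 to 2.96, so that a knockdown could not be judged there, and reads that also match the identical copy numr-2 may be split or uncounted. ints-4 was at 1363 to 1716 in control(RNAi) and 588 to 682 in ints-4(RNAi). The groups also differed in genes of reproductive age: the summed level of 4 of the 6 vitellogenins (yolk proteins) whose reads were recovered in every library was 15163 to 21134 in control(RNAi), 2137 to 3516 with cadmium, 60648 to 88141 in numr-1/2(RNAi) and 3458 to 4194 in ints-4(RNAi). With cadmium it was 7948 to 11180 in numr-1/2(RNAi) and 1838 to 2243 in ints-4(RNAi). The sum of 15 germline and oocyte markers was 44994 to 61400 in control(RNAi), 20621 to 23979 with cadmium, 102707 to 118263 in numr-1/2(RNAi), 56803 to 64487 in numr-1/2(RNAi) with cadmium, 33809 to 38229 in ints-4(RNAi) and 22796 to 28501 in ints-4(RNAi) with cadmium. In the same order, 12 moulting genes summed to 108375 to 142919, 109608 to 120192, 30432 to 34214, 64023 to 73413, 93153 to 97391 and 48766 to 63860. A set of 9 intestine markers summed to 63317 to 76567, 52335 to 76717, 58843 to 62121, 43974 to 46827, 48908 to 58933 and 49688 to 60476, in the same order. Of all 10 intestine markers, ints-4(RNAi) without cadmium had 5 called lower and 0 higher (median log2 fold change -0.76), where 7.84% of all genes fell. With cadmium in control(RNAi), 2 of 9 tested were called lower and 0 higher (median -0.61), where 3.92% of all genes fell. The sums of 14 pharynx markers and of 2 coelomocyte markers were lowest in numr-1/2(RNAi) with cadmium, at 16304 to 18865 and 572 to 639, where control(RNAi) with cadmium had 26800 to 45796 and 749.9 to 996. In that comparison 5 of the 14 pharynx markers were called lower and 0 higher, where 3.91% of all genes fell. The yolk and oocyte sums were highest in numr-1/2(RNAi) without cadmium and lower with cadmium than without it in each treatment, and no marker of these lists was at 0 in any group. The part of these differences in the results below was not tested, and in whole worms fewer cells of a type and less RNA per cell cannot be told apart.

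Of the 46 genes, 37 had a mean of at least 10 over the 6 groups and could be tested in at least 1 comparison. The other 9 were near the floor of detection. ilys-1 and lys-9 had no read in any of the 18 libraries, and ilys-6, spp-6, spp-11, spp-21, spp-26, spp-29 and spp-30 had means of 0.165 to 8.31. Reads of lys-1 could not be recovered in any group with cadmium and those of lys-2 not in numr-1/2(RNAi) with cadmium, so comparisons that need those groups give the authors' mean of each group with no test. Per kilobase of exon, the highest levels in control(RNAi) among the authors' means were 46646 for spp-17, 40378 for spp-14, 35510 for lys-4, 28268 for spp-5 and 17421 for lys-1. With cadmium the order was headed by spp-17 at 38267, lys-1 at 33948 and spp-23 at 30182.

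Many members lie beside each other in the genome. With positions from the WBcel235 annotation, 23 of the 46 genes fall into 8 clusters of members less than 5 kb apart. lys-1, lys-2 and lys-3 lie within 5.64 kb on chromosome V (10277904 to 10283544), and lys-4, lys-5 and lys-6 within 6.52 kb on chromosome IV (11621429 to 11627947). ilys-3, ilys-2 and ilys-1 lie on chromosome IV (2464456 to 2471449), and spp-3, spp-2, spp-6, spp-4 and spp-5 on chromosome X (7314969 to 7320354). The others are spp-20, spp-26 and spp-19 on chromosome V (6557615 to 6561692), spp-10 and spp-8 on chromosome IV (8477180 to 8483621), spp-9 and spp-21 on chromosome X (11487784 to 11490494), and spp-17 and spp-23 on chromosome I (1016405 to 1019157). No source used here says how reads that match several copies were counted, so values of close copies may be shared in part.

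Within some groups many members moved together from library to library. Of 33 members with a mean of at least 100, library c of control(RNAi) was the highest of the 3 for 26 and library b for 2, with median ratios to the group mean of 1.17 and 0.822. In numr-1/2(RNAi), library a was the highest for 30 of 33. With cadmium, library a was the highest for 26 of 31 in numr-1/2(RNAi) and for 27 of 32 in ints-4(RNAi). No library led so clearly in ints-4(RNAi) without cadmium, where a, b and c were the highest for 13, 6 and 14 of 33. In control(RNAi) with cadmium they were the highest for 8, 9 and 15 of 32. The same counts over all genes were not computed. The members are therefore not separate observations of a group, and a single library can carry several of them.

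Cadmium in control(RNAi) raised 7 of the 36 members tested and lowered 6. Among all 16030 genes tested, 6.76% rose and 3.92% fell, while 19.4% of the members rose and 16.7% fell. The median log2 fold change was -0.02 over the members and -0.04 over all genes, so the family split into both directions rather than shifting. The members that rose were lys-2, lys-7, ilys-2, ilys-4, spp-8, spp-18 and spp-23, and those that fell were lys-4, lys-6, ilys-5, spp-1, spp-4 and spp-12.

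With cadmium lys-2 on chromosome V rose, while lys-4 and lys-6 on chromosome IV fell. lys-2 had 7555, 7313 and 6328 scaled reads in control(RNAi) and 17259.5, 15956 and 15296 with cadmium. All libraries with cadmium were above all without, and lys-2 was 2.29-fold higher (log2 fold change 1.20 ± 0.10, adjusted p = 1.9e-07). lys-3 had 68.9, 53.7 and 91.2 and then 135, 98.8 and 113, which did not overlap but fell short of 2-fold (log2 fold change 0.71 ± 0.22, adjusted p = 0.019). The authors' means of lys-1 were 16707 and 32556, a log2 difference of 0.96 with no test.

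On chromosome IV, lys-4 had 29146, 23462 and 33198 scaled reads in control(RNAi) and 6596, 9286 and 9506 with cadmium, 3.39-fold lower (log2 fold change -1.76 ± 0.17, adjusted p = 5.1e-07). lys-6 had 487, 367 and 717 and 86.3, 105 and 83.7, 5.49-fold lower (log2 fold change -2.46 ± 0.24, adjusted p = 4.6e-07). lys-5, between them, had 379.7, 324 and 409 and 176, 208 and 238, which was lower but under 2-fold (log2 fold change -0.84 ± 0.19, adjusted p = 0.0026). In all 3 genes every library with cadmium was below every library without. lys-7, a lysozyme on chromosome V with a known role in resistance to infection, had 1687, 1398 and 2016 without and 3642, 4210.1 and 4656 with cadmium, 2.47-fold higher (log2 fold change 1.30 ± 0.15, adjusted p = 3.2e-06). lys-8, an abundant lysozyme on chromosome II, had 7553 to 9141 and 8600.2 to 9756; the groups overlapped, with a log2 fold change of 0.12 ± 0.12 (adjusted p = 0.48).

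The invertebrate-type lysozymes split as well. ilys-5, the most abundant of them, had 16473, 12091 and 21208 scaled reads in control(RNAi) and 2190.2, 3444 and 3869 with cadmium, 5.25-fold lower (log2 fold change -2.39 ± 0.22, adjusted p = 2.8e-07). ilys-2 had 6.56, 5.16 and 24.0 and 80.3, 76.1 and 98.3, 8.11-fold higher (log2 fold change 3.02 ± 0.41, adjusted p = 2e-05). ilys-4 rose 2.48-fold, from 137 to 174 to 349 to 456. ilys-3, which lies next to ilys-2 and is known as an intestinal and pharyngeal lysozyme, had 25.2, 15.5 and 61.5 and 29.1, 45.5 and 38.9, which overlapped (adjusted p = 0.64).

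**Figure D1:**
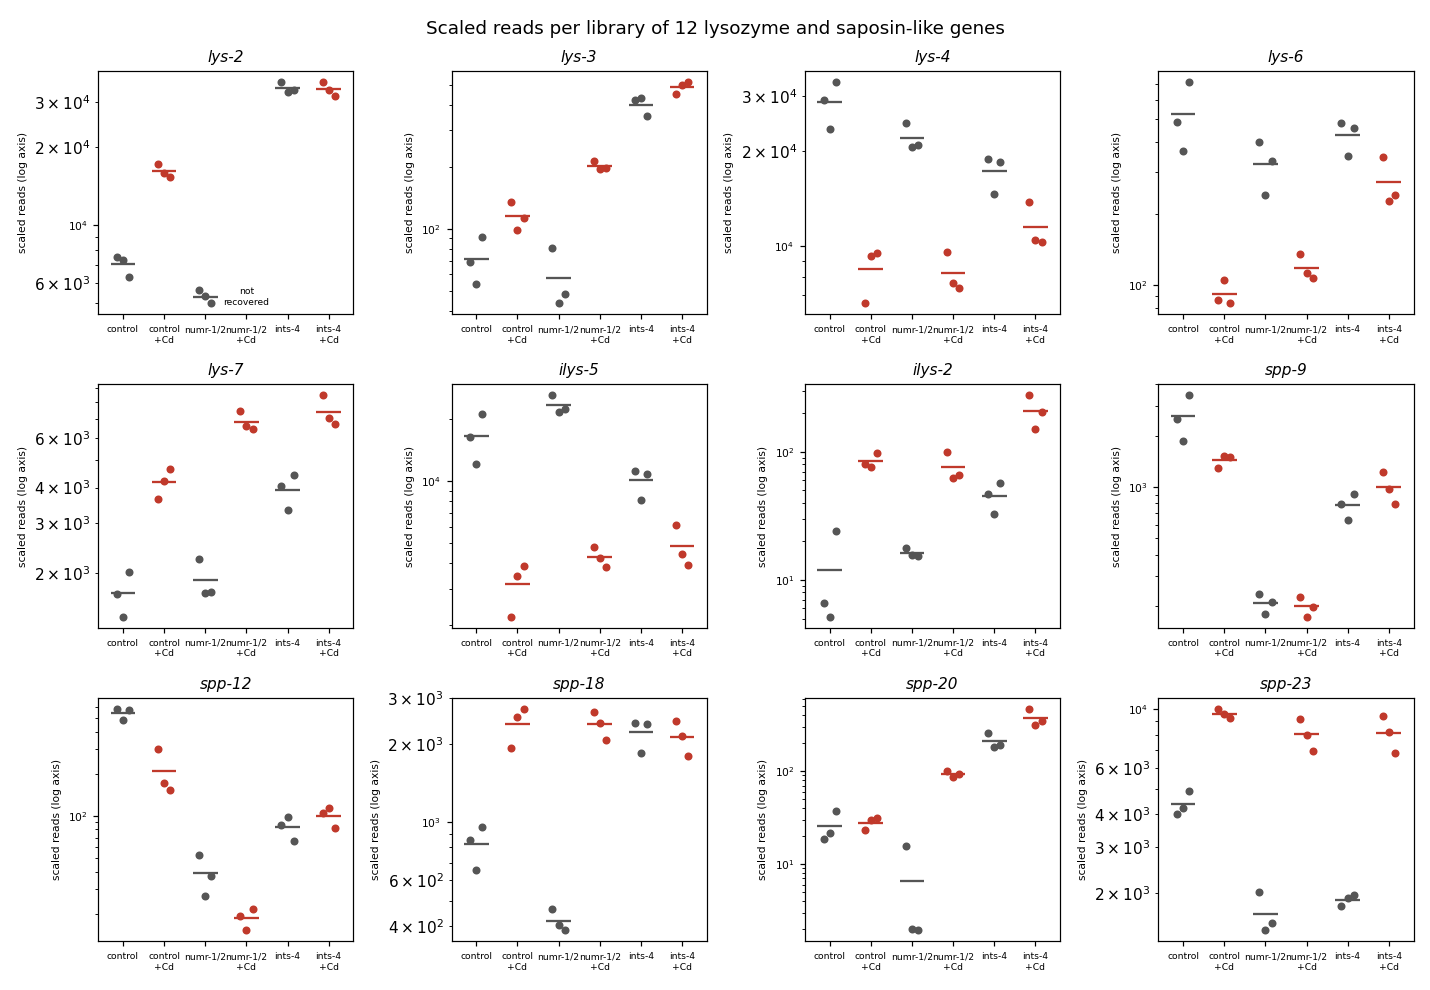
Scaled reads per library (log axis) of 12 lysozyme and saposin-like genes in the 6 groups; each point is 1 library, the short line is the mean of 3, and red marks the groups with cadmium. lys-2 is shown for 5 groups, since its reads were not recovered in numr-1/2(RNAi) with cadmium. spp-9 lies at 179 to 235 in numr-1/2(RNAi), below all libraries of control(RNAi).

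Among the saposin-like genes, spp-18 had 851, 657 and 960.4 scaled reads in control(RNAi) and 1926, 2533 and 2729 with cadmium, 2.91-fold higher (log2 fold change 1.54 ± 0.16, adjusted p = 1.4e-06). spp-8 rose 2.60-fold from 1156 to 1484 to 2989.8 to 3806 (adjusted p = 2.4e-08), and spp-23 rose 2.21-fold from 4013 to 4887 to 9245 to 10044 (adjusted p = 5.5e-06). Their neighbours did not pass the test: spp-10, beside spp-8, had a log2 fold change of 0.09 ± 0.10 and spp-17, beside spp-23, of -0.29 ± 0.15.

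spp-1, a caenopore that kills bacteria, had 1859, 1385 and 2418 scaled reads without and 569, 688 and 692 with cadmium, 2.84-fold lower (log2 fold change -1.51 ± 0.25, adjusted p = 0.00015). spp-12 had 581, 487 and 572 and 301, 171 and 153, 2.73-fold lower (adjusted p = 0.00055), and spp-4 fell 2.31-fold, from 989 to 1609.6 to 473 to 685. spp-5, a caenopore of the same cluster as spp-4, had 7453 to 13796 and 5133 to 8317 and did not pass (log2 fold change -0.59 ± 0.24, adjusted p = 0.065). All 13 members called in this comparison had groups that did not overlap. The rule for calls favours such genes, and the share over all called genes was not computed. Left out in turn, no library ended one of these calls.

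numr-1/2(RNAi) without cadmium raised none of the 37 members tested past 2-fold and lowered 6. Of the 16239 genes tested by limma, 6.68% rose and 6.9% fell. 2 members rose and 9 fell at an adjusted p below 0.05 alone, and 4 rose and 11 fell at an unadjusted p below 0.05. Fits with voom weights, quantile normalization and other filters also called 0 members higher. The 6 were spp-9, spp-12, spp-13, spp-20, spp-23 and ilys-3, so that 5 are saposin-like genes and no lys gene was called.

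spp-9 and spp-12 showed the largest falls of the members tested in this comparison. spp-9 had 2489, 1864 and 3447 scaled reads in control(RNAi) and under numr-1/2(RNAi) 235, 179 and 213, 12.1-fold lower (log2 fold change -3.60 ± 0.20, adjusted p = 6.2e-10). spp-12 had 52.9, 26.6 and 37.5 in numr-1/2(RNAi) against the values above, 14.2-fold lower (log2 fold change -3.82 ± 0.27, adjusted p = 1.4e-08). The groups lay far apart in both genes. spp-23 had 2032, 1447 and 1542 against 4013, 4222 and 4887 in control(RNAi), 2.63-fold lower (log2 fold change -1.40 ± 0.14, adjusted p = 6.3e-07).

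spp-13 had 1702, 1246 and 2259 in control(RNAi) and under numr-1/2(RNAi) 1024, 712 and 704, 2.1-fold lower (adjusted p = 0.00092), and it fell under 2-fold without library c of control(RNAi) or library b or c of numr-1/2(RNAi), at log2 fold changes of -0.86, -0.99 and -0.98. ilys-3 had 19.7, 4.92 and 5.77 in numr-1/2(RNAi), which overlapped control(RNAi) (adjusted p = 0.014). Its call was lost without any of the same 3 libraries, at adjusted p of 0.08, 0.07 and 0.059, in a fit with voom weights, at 0.054, and with only the libraries of the 2 groups, at 0.105. spp-20 had 18.6, 21.7 and 37.5 in control(RNAi) and under numr-1/2(RNAi) 15.6, 1.97 and 1.92; its log2 fold change of -2.30 (adjusted p = 0.0011) rested on few reads and was -1.58 with a pseudocount of 5. The adjusted p of spp-20 was 0.058 when only those libraries were fitted.

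ints-4(RNAi) without cadmium raised 8 of 37 members and lowered 5, against 8.83% and 7.84% of the 16234 genes tested. The median log2 fold change was 1.19 over the 9 lys genes, -0.47 over the 24 spp genes and 0.04 over all genes. The cluster of lys-1, lys-2 and lys-3 rose as a whole. lys-1 had 18171, 17078 and 15959 scaled reads in control(RNAi) and 72124, 63616 and 70418 in ints-4(RNAi), 4.03-fold higher (log2 fold change 2.01 ± 0.10, adjusted p = 4.3e-08; the spread of lys-1 was taken from the 3 groups whose reads were recovered). lys-2 reached 35654, 32631 and 33345 and was 4.80-fold higher (log2 fold change 2.26 ± 0.09, adjusted p = 4.1e-11). lys-3 reached 421, 429 and 352 and was 5.66-fold higher (log2 fold change 2.50 ± 0.22, adjusted p = 7.8e-08). The 3 neighbours thus rose by log2 values of 2.01 to 2.50, although lys-3 had a small part of the reads of the other two.

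The neighbours lys-4, lys-5 and lys-6 did not rise. lys-5 had 161, 145 and 147 in ints-4(RNAi), 2.44-fold lower than control(RNAi) (log2 fold change -1.29 ± 0.19, adjusted p = 3.7e-05). lys-4 had 18944, 14654 and 18509 (log2 fold change -0.71 ± 0.17, adjusted p = 0.0027) and lys-6 482, 351 and 457 (log2 fold change -0.24 ± 0.24, adjusted p = 0.46), neither 2-fold lower. lys-7 had 4049, 3328 and 4423 and was 2.32-fold higher (log2 fold change 1.22 ± 0.15, adjusted p = 4.3e-06).

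spp-20 had 256, 183 and 193 scaled reads in ints-4(RNAi), 8.13-fold above control(RNAi) (log2 fold change 3.02 ± 0.48, adjusted p = 7.1e-05), which is the opposite direction to its fitted value in numr-1/2(RNAi). Its neighbour spp-19 had 29.99 to 43.1 against 20.8 to 27.9 (adjusted p = 0.3), and spp-26, in the same cluster, had 0 to 1.02. spp-18 rose 2.71-fold to 1851 to 2416, spp-24 2.23-fold from 86.4 to 110.4 to 196 to 264, and ilys-2 4.33-fold to 33.0 to 57.2.

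The saposin-like genes that fell were spp-4, spp-9, spp-12 and spp-23. spp-12 had 85.5, 98.0 and 66.6 scaled reads, 6.56-fold lower than control(RNAi) (log2 fold change -2.71 ± 0.27, adjusted p = 4.1e-07). spp-9 had 795, 644 and 907, 3.25-fold lower (adjusted p = 2.7e-06). spp-23 had 1794, 1927 and 1964, 2.30-fold lower (adjusted p = 1.7e-06), and spp-4 fell 2.46-fold to 529 to 567. spp-9, spp-12 and spp-23 were thus called lower under both RNAi treatments, which were compared with the same 3 control libraries. No call of this comparison ended when any library was left out.

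**Figure D2:**
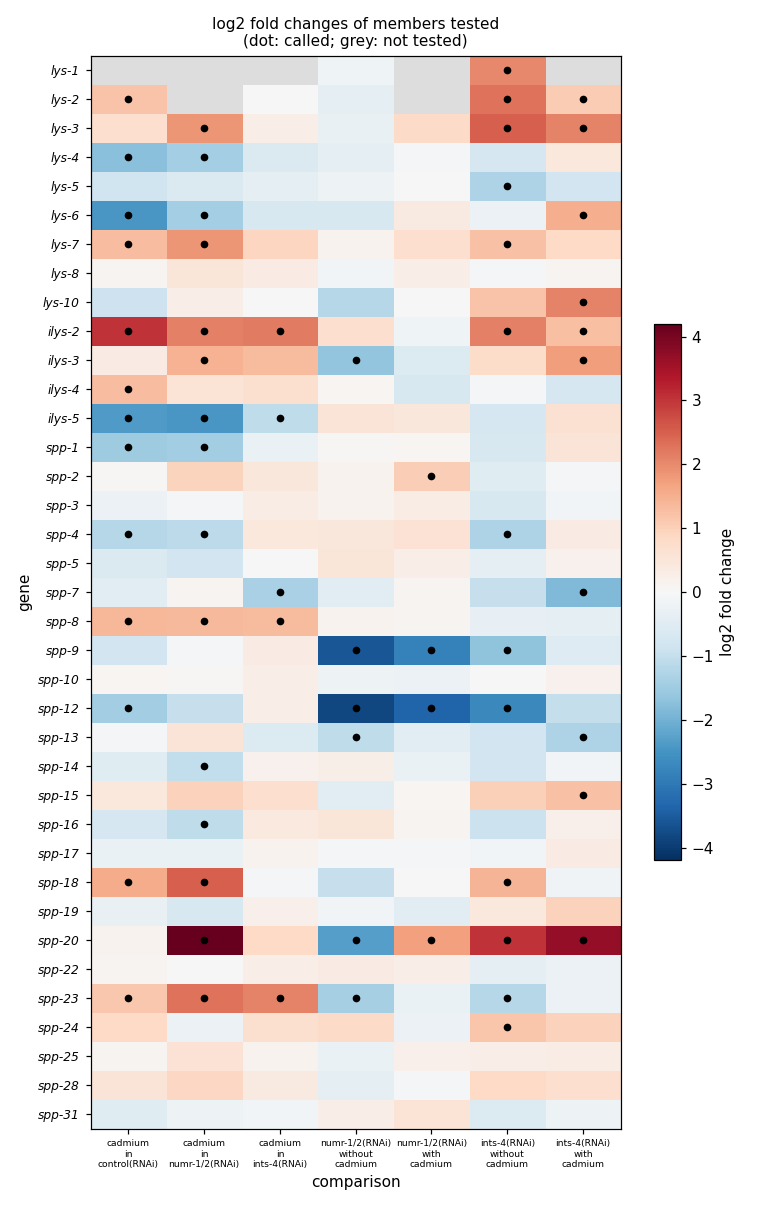
Log2 fold changes (colour) of the 37 members tested, by gene (rows) and comparison (columns); black dots mark genes called at an adjusted p below 0.05 and at least 2-fold, and grey cells were not tested. spp-20 has the highest value, 4.18 for cadmium in numr-1/2(RNAi), and spp-12 the lowest, -3.82 for numr-1/2(RNAi) without cadmium.

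In numr-1/2(RNAi), cadmium raised 8 of 35 members tested and lowered 7, where 8.22% of 16038 genes rose and 3.89% fell. spp-18 had 465, 404 and 384 scaled reads without and 2646, 2417 and 2066 with cadmium, 5.67-fold higher (log2 fold change 2.50 ± 0.16, adjusted p = 3.1e-09). spp-23 reached 9219.6, 7983 and 6932, 4.83-fold higher (log2 fold change 2.27 ± 0.14, adjusted p = 1e-09). lys-7 reached 7473, 6605 and 6423, 3.65-fold higher (adjusted p = 3.8e-08), and lys-3 rose 3.59-fold from 43.3 to 81.0 to 194 to 212 (adjusted p = 4.1e-06).

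spp-20 had 101, 86.9 and 93.6 scaled reads with cadmium in numr-1/2(RNAi) after 1.92 to 15.6 without, a log2 fold change of 4.18 ± 0.48 (adjusted p = 2.7e-06) that was 3.31 with a pseudocount of 5. The groups did not overlap, and the size of the fold is uncertain, since libraries b and c without cadmium had close to 2 reads each. spp-8 rose 2.55-fold to 3461 to 3954 and ilys-2 4.38-fold to 62.7 to 99.3. ilys-3 rose 2.76-fold with overlapping groups (adjusted p = 0.033), and without any of 4 libraries (b or c of numr-1/2(RNAi), a or b with cadmium) its adjusted p was 0.08 to 0.146. The call of ilys-3 was also lost with no minimum on the mean (adjusted p = 0.06), with voom weights (0.111), with only the libraries of both groups (0.097) and with quantile normalization (0.124, log2 fold change 0.94).

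The members that fell with cadmium in numr-1/2(RNAi) were lys-4, lys-6, ilys-5, spp-1, spp-4, spp-14 and spp-16. ilys-5 had 26185, 21809.7 and 22536 scaled reads without and 4776, 4244 and 3841 with cadmium, 5.49-fold lower (log2 fold change -2.46 ± 0.22, adjusted p = 1.7e-07). lys-4 fell 2.69-fold from 20658 to 24552 to 7378 to 9625, lys-6 2.69-fold from 240.3 to 399.6 to 107 to 135, and spp-1 2.76-fold from 1462 to 2436 to 572 to 853. spp-4, spp-14 and spp-16 fell 2.13-fold, 2.03-fold and 2.1-fold, all close to the threshold. spp-4 and spp-14 came under 2-fold without library a of numr-1/2(RNAi) (log2 fold changes of -0.95 and -0.89), and spp-14 and spp-16 without library c with cadmium (-0.90 and -0.99), and spp-14 also with quantile normalization (-0.75). The authors' means of lys-1 were 15809 and 38058 in this table, and those of lys-2 were 5565 and 20375, log2 differences of 1.27 and 1.87 with no test.

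In ints-4(RNAi), cadmium raised 3 of 36 members, namely spp-8, spp-23 and ilys-2, and lowered 2, spp-7 and ilys-5, where 2.69% of 16152 genes rose and 1.29% fell. spp-23 had 1794, 1927 and 1964 scaled reads without and 9471, 8185 and 6843 with cadmium, 4.27-fold higher (log2 fold change 2.1 ± 0.14, adjusted p = 1.3e-08). spp-8 had 1057, 1005 and 1067 and 2904, 2513 and 2472, 2.51-fold higher (log2 fold change 1.33 ± 0.11, adjusted p = 1.2e-07), and ilys-2 rose 4.5-fold to 151 to 276. ilys-5 had 11256, 8154 and 10872 and 6153, 4423 and 3929, 2.11-fold lower (adjusted p = 0.0031), and came under 2-fold without library a of ints-4(RNAi) (log2 fold change -0.99) or library c with cadmium (-0.94). spp-7 had 107, 109.97 and 119 and 64.0, 26.7 and 47.2, 2.55-fold lower (adjusted p = 0.0014). In the lys-1 cluster no change by cadmium was detected for lys-2 or lys-3, and lys-1 had no test. lys-3 had 421, 429 and 352 without and 452, 496 and 517 with cadmium. These did not overlap, with a log2 fold change of 0.29 ± 0.22 (adjusted p = 0.41) and a 95% interval of -0.14 to 0.72. lys-2 had 35780.00, 33417 and 31632 with cadmium, a log2 fold change of -0.01 ± 0.09, with a 95% interval of -0.20 to 0.17, and the authors' means of lys-1 were 67252 and 65598.

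Whether cadmium acted alike in control and RNAi worms was tested directly, as the difference of the log2 fold changes by cadmium. Between ints-4(RNAi) and control(RNAi) it differed for 11 of 36 members at an adjusted p below 0.05, 9 with a higher and 2 with a lower value in ints-4(RNAi), where 8.09% and 5.47% of 16024 genes did. The 2 with a lower value, 5.56% of the members, are close to the share over all genes. lys-2 and spp-18 rose with cadmium in control(RNAi) and not in ints-4(RNAi), where both were already high without cadmium. The log2 fold change of lys-2 by cadmium was 1.20 in control(RNAi) and -0.01 in ints-4(RNAi), a difference of -1.21 ± 0.14 (adjusted p = 3.2e-05). That of spp-18 was 1.54 and -0.06, a difference of -1.60 ± 0.23 (adjusted p = 0.00017).

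Of the 9 with a higher value in ints-4(RNAi), 8 had lower values with cadmium in control(RNAi), and the fall was smaller in ints-4(RNAi) or not seen. lys-6 changed by -2.46 and -0.68 on the log2 scale, a difference of 1.78 ± 0.34 (adjusted p = 0.0017). spp-12 changed by -1.45 and 0.27, and spp-4 by -1.21 and 0.45 (differences of 1.72 ± 0.39 and 1.66 ± 0.25). The others were ilys-5, lys-4, spp-1, spp-9 and spp-16, with differences of 1.11 to 1.32. Without cadmium, the ints-4(RNAi) means of spp-12, spp-4, spp-9 and spp-16 were already below their means in control(RNAi) with cadmium. They were 83.3 against 208, 543 against 585, 782 against 1441 and 201 against 241, with overlapping libraries for spp-4 and spp-16. For lys-6, ilys-5, lys-4 and spp-1, the ints-4(RNAi) mean without cadmium lay between those of control(RNAi) with and without cadmium. spp-1 missed the threshold when any of several single libraries was left out, at adjusted p of 0.0532 to 0.0727. spp-16 missed it on leaving out most single libraries, at 0.0504 to 0.085. With quantile normalization spp-1 also missed it, at 0.0501. The 9th, spp-23, rose in both, by 1.14 and 2.1, from a lower start in ints-4(RNAi).

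Between numr-1/2(RNAi) and control(RNAi), the change by cadmium differed for 5 of 35 members, 4 upward and 1 downward, where 3.98% and 3.46% of 15993 genes did. The 1 downward, 2.86% of the members, is close to the share over all genes. spp-23 changed by 1.14 in control(RNAi) and under numr-1/2(RNAi) by 2.27 on the log2 scale, a difference of 1.13 ± 0.19 (adjusted p = 0.0013). spp-18 differed by 0.96 ± 0.23 (adjusted p = 0.016), and spp-20 by 4.02 ± 0.68 (adjusted p = 0.0012) with the few reads given above. Both spp-18 and spp-23 had a lower start in numr-1/2(RNAi) and no higher mean with cadmium. The mean of spp-18 was 418 against 823 in control(RNAi) without cadmium, and 2376 against 2396 with it. That of spp-23 was 1674 against 4374 without cadmium, and 8045 against 9620 with it. lys-3 differed by 1.13 ± 0.31 (adjusted p = 0.034), a call that was lost on leaving out most single libraries, at adjusted p of 0.0614 to 0.0913. spp-24 rose by 0.85 with cadmium in control(RNAi) and had -0.23 in numr-1/2(RNAi), where it was already at 172 to 182 scaled reads without cadmium (difference -1.08 ± 0.21, adjusted p = 0.003).

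**Figure D3:**
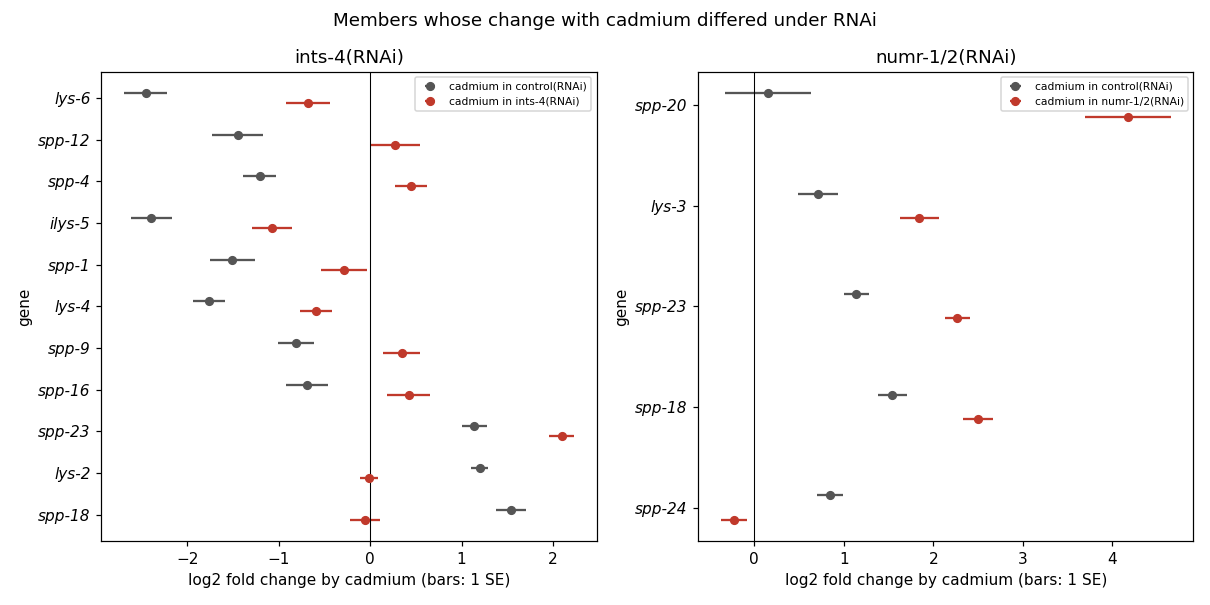
Log2 fold changes by cadmium (bars are 1 SE) in control(RNAi), grey, and in the named RNAi, red, for the 11 members whose change differed in ints-4(RNAi) (left) and the 5 in numr-1/2(RNAi) (right). lys-2 stands at 1.20 in control(RNAi) and -0.01 in ints-4(RNAi).

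With cadmium present in both groups, numr-1/2(RNAi) worms differed from control(RNAi) worms in 4 of 35 members. 2 were higher and 2 lower, 5.71% each, where 7.58% and 3.91% of 15997 genes were. These counts are close to the share over all genes. spp-12 had 19.3, 15.2 and 21.5 scaled reads against 301, 171 and 153 in control(RNAi) with cadmium, 10.2-fold lower (log2 fold change -3.36 ± 0.28, adjusted p = 1.8e-07). spp-9 had 227, 173 and 197 against 1297, 1517 and 1508, 7.23-fold lower (log2 fold change -2.85 ± 0.20, adjusted p = 4.3e-08). Both genes were thus low in numr-1/2(RNAi) without and with cadmium. spp-20 was 3.30-fold higher (adjusted p = 0.0086) and spp-2 2.03-fold higher, at 1081, 914 and 942 against 319, 569 and 612. spp-2 came under 2-fold without library a of either group, at log2 fold changes of 0.73 and 0.95, and with quantile normalization, at 0.94.

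With cadmium, ints-4(RNAi) worms were higher than control(RNAi) worms in 8 of 36 members and lower in 2, where 7.17% and 6.86% of 16028 genes were. The 2 lower, 5.56% of the members, are close to the share over all genes. spp-20 had 471, 312 and 345 scaled reads against 23.1, 29.6 and 31.1, 12.9-fold higher (log2 fold change 3.69 ± 0.48, adjusted p = 1.1e-05). lys-3 had 452, 496 and 517 against 135, 98.8 and 113, 4.22-fold higher (log2 fold change 2.08 ± 0.22, adjusted p = 9.7e-07), and lys-2 was 2.08-fold higher (adjusted p = 5.4e-07). lys-6 had 347, 226 and 238 against 86.3, 105 and 83.7, 2.89-fold higher (adjusted p = 7.4e-05).

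spp-15 was 2.37-fold higher at 407, 200.4 and 299.9. ilys-2, ilys-3 and lys-10 were 2.40-fold, 3.36-fold and 4.26-fold higher, and each lost its call without some single library: ilys-2 at adjusted p of 0.06 and 0.098, ilys-3 at 0.059, and lys-10, with 3.01, 2.96 and 4.87 in control(RNAi) with cadmium, at 0.0522 to 0.0876. The call of lys-10 was also lost with no minimum on the mean (adjusted p = 0.063) and with quantile normalization, which gave it a log2 fold change of 1.24 (adjusted p = 0.207). Lower were spp-7, at 64.0, 26.7 and 47.2 against 187, 166 and 131 (3.63-fold, adjusted p = 1.9e-05), and spp-13, at 819, 549 and 592 against 1342, 1789 and 1667 (2.47-fold, adjusted p = 0.00015).

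For members described above in some groups alone, the values in the other groups are given as mean ± SD of scaled reads (n = 3). lys-5 was at 319.6 ± 50.2 under numr-1/2(RNAi), 208 ± 29.3 under numr-1/2(RNAi) with cadmium and 119 ± 32.4 under ints-4(RNAi) with cadmium. ilys-4, which was highest in control(RNAi) with cadmium, was at 164 ± 24.4 under numr-1/2(RNAi), 245 ± 49.3 under numr-1/2(RNAi) with cadmium, 149 ± 1.54 under ints-4(RNAi) and 237 ± 21.6 under ints-4(RNAi) with cadmium. spp-1 was at 1147 ± 145 under ints-4(RNAi) and 980.00 ± 386 under ints-4(RNAi) with cadmium. lys-5 had its lowest mean in ints-4(RNAi) with cadmium.

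In the saposin-like cluster on chromosome X, spp-2 was at 481 ± 158 in control(RNAi), 518 ± 73.4 under numr-1/2(RNAi), 334 ± 94.9 under ints-4(RNAi) and 461 ± 97.3 under ints-4(RNAi) with cadmium. spp-4 was at 1887 ± 339 under numr-1/2(RNAi), 878 ± 68.1 under numr-1/2(RNAi) with cadmium and 747 ± 123 under ints-4(RNAi) with cadmium. In spp-2 the highest group was numr-1/2(RNAi) with cadmium, in spp-4 numr-1/2(RNAi) without it. spp-8 was at 1448 ± 92.8 under numr-1/2(RNAi). spp-14 was at 14696 ± 4619.6 in control(RNAi), 9992 ± 1554 in control(RNAi) with cadmium, 16856 ± 3011 under numr-1/2(RNAi), 8320.4 ± 1501 under numr-1/2(RNAi) with cadmium, 8319 ± 2025 under ints-4(RNAi) and 9348 ± 2447 under ints-4(RNAi) with cadmium, and spp-16 was at 386 ± 119 in control(RNAi), 241 ± 76.6 in control(RNAi) with cadmium, 528 ± 42.0 under numr-1/2(RNAi), 251 ± 25.6 under numr-1/2(RNAi) with cadmium, 201 ± 16.5 under ints-4(RNAi) and 273 ± 55.3 under ints-4(RNAi) with cadmium. Both were highest in numr-1/2(RNAi) without cadmium.

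spp-7 was at 222 ± 37.3 in control(RNAi), 159 ± 20.6 under numr-1/2(RNAi) and 175 ± 31.9 under numr-1/2(RNAi) with cadmium. spp-13 was at 1176 ± 177 under numr-1/2(RNAi) with cadmium and 982 ± 205 under ints-4(RNAi). Both genes were lowest in ints-4(RNAi) with cadmium. spp-15 was at 89.8 ± 4.63 in control(RNAi), 122.2 ± 6.52 in control(RNAi) with cadmium, 65.8 ± 9.58 under numr-1/2(RNAi), 134 ± 41.5 under numr-1/2(RNAi) with cadmium and 185 ± 60.6 under ints-4(RNAi). spp-24 was at 181 ± 15.04 in control(RNAi) with cadmium, 151 ± 13.9 under numr-1/2(RNAi) with cadmium and 358 ± 33.6 under ints-4(RNAi) with cadmium. These 2 genes had their highest mean in ints-4(RNAi) with cadmium.

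Other tested members passed the rule in no comparison: lys-8, spp-3, spp-5, spp-10, spp-17, spp-19, spp-22, spp-25, spp-28 and spp-31. spp-10 stayed between 5159 and 8395 scaled reads in all 18 libraries, and spp-17 between 12034 and 22027. spp-21, beside spp-9, was too low to be tested, at 7.68 to 10.3 in control(RNAi) and under numr-1/2(RNAi) 0 to 2.08.

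The genes around these effectors were read from lists of regulators and digestive enzymes. Of 22 regulators of intestinal immunity, 3 rose and 1 fell with cadmium in control(RNAi), 2 rose and 3 fell in ints-4(RNAi), and in numr-1/2(RNAi) without cadmium limma called 0, as did the voom fit, with 1 above and 6 below control(RNAi) at an unadjusted p under 0.05. Over all genes, 6.76% rose and 3.92% fell with cadmium and 8.83% rose and 7.84% fell in ints-4(RNAi). The 1 of 22 lower with cadmium and the 2 of 22 higher in ints-4(RNAi) are therefore close to the share over all genes. cebp-1, a transcription factor of the immune response, had a log2 fold change of 1.66 with cadmium and 1.38 in ints-4(RNAi), and elt-2, the main transcription factor of the intestine, had -1.30 in ints-4(RNAi), with mean scaled reads of 715 in control(RNAi) and 290 in ints-4(RNAi). elt-7, its partner, had -2.04 there and fshr-1, a receptor that acts in innate immunity, -1.68. Of 20 digestive and lysosomal proteases, 3 of 11 tested rose and 4 fell with cadmium in control(RNAi), 5 of 18 fell in numr-1/2(RNAi) and 1 rose and 6 of 18 fell in ints-4(RNAi), where of all genes 6.9% fell in numr-1/2(RNAi) and the other shares are those just given. The aspartic protease gene asp-13 fell with a log2 fold change of -2.76 with cadmium in control(RNAi), and asp-17 rose with 2.73, so these enzymes also split into both directions.

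Splicing events were listed for 6 members. Skipped exons of spp-10, spp-18, spp-24, spp-25 and ilys-5 were included at 98.5% to 100% in the libraries of the tables that listed them, each of 6 libraries, and a retained intron of spp-31 was kept at 0% to 12.2%. These inclusion levels are given with no test.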

How the data were processed

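The submitters' processing notes name HISAT2 2.1.0 for alignment and HTSeq 0.6.1 for counting; no source used here gives the genome build. The deposited expression signal is 1 value per gene and group in each of 5 tables, which the authors scaled within the table. Fold changes and p-values of the authors were not used. Other deposited columns used were splicing inclusion levels, computed with rMATS by the authors.

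Each group value is the mean of 3 whole read counts, each divided by a size factor. From the 15 significant digits these counts were solved, keeping genes with a single possible split in which, at higher group values, each library held a share of 0.15 to 0.6; high genes of wider spread could not be recovered. Size factors recomputed from the counts differed by at most 0.331%. The groups without cadmium stood in 2 or 3 tables, and their counts had to give the value in each. Those with cadmium stood in 1 table each, so no other table could check their split. The method was also run on simulated data, with an outcome that is not given here.

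Counts were scaled by median ratios over 18 libraries, and log2(scaled reads + 1) was fitted with limma 3.58.1 (trend) in R 4.3.3 for genes with a mean of at least 10, with Benjamini-Hochberg adjustment. Genes with unrecovered groups were fitted on the others. The plan had assumed pooled values without spread, counted by fold alone; limma was added after the data were seen. Named members have a mean of at least 100 and differ at least 2-fold, or were called. The members and lists were chosen with earlier results of these data known. Protein and promoter sequences were not analysed here. Python 3.11.15, NumPy 2.4.6 and pandas 2.3.3 were used.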

Additional observations from a re-analysis of the deposited data

Results flagged for a closer look

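The change by cadmium differed between ints-4(RNAi) and control(RNAi) in the test of that difference (limma, adjusted over all genes tested) for 11 members. On the log2 scale, the value in ints-4(RNAi) minus that in control(RNAi) was 1.78 for lys-6, 1.72 for spp-12, 1.66 for spp-4, 1.32 for ilys-5, 1.22 for spp-1, 1.17 for lys-4, 1.15 for spp-9, 1.11 for spp-16 and 0.95 for spp-23. It was -1.60 for spp-18 and -1.21 for lys-2, and the standard errors of all 11 were 0.14 to 0.39. Between numr-1/2(RNAi) and control(RNAi) the difference was 4.02 for spp-20, 1.13 for lys-3, 1.13 for spp-23 and 0.96 for spp-18, and -1.08 for spp-24, with standard errors of 0.19 to 0.68. Both tests use the same 6 libraries of control(RNAi). The causes of these differences were not tested.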

How the results depend on the processing

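The number of members called by limma stayed within 1.5 times its value in each comparison under no minimum, a minimum mean of 100, a pseudocount of 5, voom, quantile normalization and a fit of only the libraries of the 2 groups; these alternatives and the limma test itself were chosen after seeing the data. Leaving out each library in turn gave 13 to 14 called members for cadmium in control(RNAi), 14 to 15 in numr-1/2(RNAi) and 4 to 6 in ints-4(RNAi). It gave 4 to 7 for numr-1/2(RNAi) and 13 to 17 for ints-4(RNAi) without cadmium, 3 to 4 and 8 to 12 with cadmium, and 4 to 7 and 9 to 11 for the differences in the change by cadmium. No called member changed direction under any of these. lys-1 and lys-2 could not be fitted with voom or quantile normalization, which need reads in every library. Counted by the fold of the authors' group means alone, 14, 7, 15, 18, 6, 3 and 12 members were at least 2-fold apart, in the order cadmium in control(RNAi), numr-1/2(RNAi), ints-4(RNAi), cadmium in numr-1/2(RNAi), cadmium in ints-4(RNAi), numr-1/2(RNAi) with cadmium and ints-4(RNAi) with cadmium. At 4-fold these were 3, 2, 5, 5, 2, 2 and 3. At 1.5-fold, 25 were counted for ints-4(RNAi), 14 for cadmium in ints-4(RNAi), 9 for numr-1/2(RNAi) with cadmium and 20 for ints-4(RNAi) with cadmium, and with no minimum 5 for numr-1/2(RNAi) with cadmium. No paired analysis was possible because the recovered libraries carry no replicate numbers. The planned tests on splicing event reads and on inclusion were not run, since recovered reads gave a spread between libraries for most genes. Most genes without recovered reads were of high level, among them lys-1 with cadmium and lys-2 in numr-1/2(RNAi) with cadmium, and had no test where those reads were needed.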
